A study of Mus musculus with 8 samples.

Results

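The insulin-like growth factor (IGF) system was followed through single nuclei of mouse visceral white adipose tissue by 10 genes, chosen by name from the feature list: the ligand genes Igf1 and Igf2, the receptor genes Igf1r and Igf2r, and the binding protein genes Igfbp2, Igfbp3, Igfbp4, Igfbp5, Igfbp6 and Igfbp7. All 10 were found among the 56749 features of every library, and 1 of them, Igf2, was too low to test.

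As background, IGF1 and IGF2 are secreted peptides that signal through IGF1R, a receptor tyrosine kinase close to the insulin receptor, and so promote growth, survival and differentiation of many cells. IGF2R, also known as the cation-independent mannose-6-phosphate receptor, carries newly made lysosomal enzymes to lysosomes and takes up IGF2 for degradation, and in the mouse it is a classic imprinted gene whose paternal copy is silenced in many tissues by the overlapping non-coding RNA Airn. The binding proteins hold IGFs in blood and tissue fluid, and proteases such as pregnancy-associated plasma protein A release the ligand by cutting them. In adipose tissue, growth hormone drives Igf1 transcription, macrophages make IGF1, and IGF signalling supports preadipocytes.

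Nuclear RNA was counted in 8 mice, 2 in each of 4 groups, with the genotype and diet that the labels give. The mCherry SD group carried p21+/mCherry, with the red fluorescent protein mCherry at 1 copy of the p21 locus (the gene Cdkn1a), and ate a standard diet. The mCherry HFD group had the same genotype and ate a high-fat diet. The Tert HFD group was p21+/mCherry-Tert and the TertCi HFD group p21+/mCherry-TertCi, both on the high-fat diet, so that every group carried the mCherry allele of p21. Tert encodes the catalytic subunit of telomerase, driven here by the p21 promoter and thus in cells that use that promoter; how the TertCi allele differs is not given in the sources used here. In the series' design text the tissue is the stromal vascular fraction and the mCherry genotype fed the high-fat diet is written p21+/-; where they differ, the sample labels were followed. Age and sex are not given in the sources used here. Within each group, values below stand in the order rep144 and rep146 for mCherry SD, rep128 and rep129 for mCherry HFD, rep134 and rep136 for Tert HFD, and rep138 and rep140 for TertCi HFD.

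Libraries held 23378488 to 139749876 unique molecular identifiers (UMIs, 1 per captured RNA molecule), and 30209 nuclei were called, 1978 to 7433 per mouse. Clusters were named from marker genes as adipocyte-like (5344 nuclei), progenitor-like (5192), macrophage-like (8089), endothelial-like (842), mural-like (437) and mesothelial-like (1559), and 7981 nuclei in clusters that carried markers of a pair of lineages were called mixed and entered no class. Adipocyte-like nuclei were found in all 8 libraries, 91 to 1732 per mouse, which the label of whole adipose tissue calls for and that of the stromal vascular fraction does not. Over all barcodes Tert stood at 3.52 and 3.98 CPM (the gene's UMIs scaled to a common UMI total) in mCherry SD, 3.27 and 3.58 in mCherry HFD, 2.66 and 2.01 in Tert HFD, and 2.76 and 2.48 in TertCi HFD, and whether these 3' counts can see the inserted copy is not given, so they do not check the genotype labels. In the edgeR test described below, progenitor-like nuclei had less Tert than mCherry HFD in both genotypes. The log2 difference was -1.65 for Tert HFD (adjusted p = 0.0367) and -1.60 for TertCi HFD (0.0258), where 12.1% and 22.3% of all genes passed. Neither genotype passed in adipocyte-like nuclei or over all nuclei.

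Among the 6 classes, each member had its highest level in macrophage-like, mesothelial-like, mural-like or endothelial-like nuclei, and the same class came first when nuclei were thinned to 1000 UMIs and the share with a UMI was taken (9 of 9 members, Igf2 left out). Igf1 had its highest mean in macrophage-like nuclei, at 552 ± 145 CPM (SD over mice, n = 8), followed by 428 ± 216 in adipocyte-like nuclei. Within macrophages the perivascular macrophage-like subclass stood at 714 ± 217 CPM and the lipid-associated macrophage-like subclass at 417 ± 100.3 (n = 6). Igf1 was lowest of the 6 in progenitor-like nuclei, at 195 ± 83.8 CPM, and the ranges over mice of neighbouring classes overlapped throughout this order.

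Igf1r stood at 638 ± 127 CPM in mesothelial-like, 576 ± 122 in progenitor-like and 125 ± 25.2 in adipocyte-like nuclei. Its adipocyte-like level, 85.8 to 157 CPM over mice, did not overlap that of any of the other 5 classes, the lowest of which was 229. Igf2r ran from 351 ± 315 CPM in mural-like to 93.9 ± 124 in adipocyte-like nuclei, with a wide spread over mice that is given by group further on. Of the binding proteins, Igfbp7 was highest in mural-like nuclei (497 ± 119 CPM) and Igfbp3 in endothelial-like nuclei (19.9 ± 11.2). Igfbp2, Igfbp4, Igfbp5 and Igfbp6 were all highest in mesothelial-like nuclei, the sheet of cells that covers visceral fat, at 8.01 ± 7.95, 99.7 ± 17.6, 203 ± 72.2 and 75.2 ± 30.8 CPM. The ranges of mesothelial-like nuclei and the next class overlapped for Igfbp2, Igfbp5 and Igfbp6, while Igfbp4 overlapped the progenitor-like and mural-like ranges but not the endothelial-like one, the second in order. These class levels are descriptions with no test, since the classes come from clustering the same nuclei, and a level is compared between classes for 1 gene at a time.

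**Figure D1:**
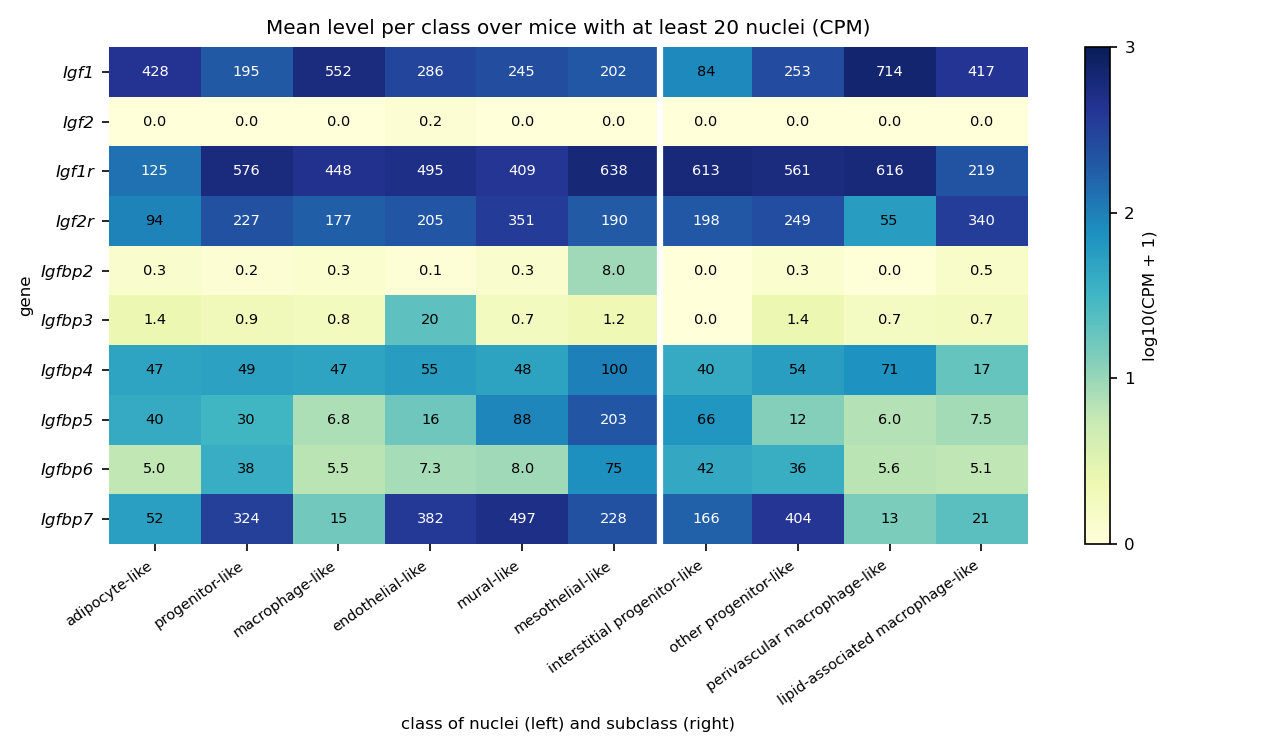
Mean level over mice in CPM of each of the 10 genes (y axis) in each class of nuclei and, right of the white line, each subclass (x axis); the value is printed in each cell and the colour gives log10(CPM + 1). Among the 6 classes Igfbp2, Igfbp4, Igfbp5 and Igfbp6 have their highest value in the mesothelial-like column, Igf1 in the macrophage-like column, and Igf1r its lowest in the adipocyte-like column.

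Some free RNA from broken nuclei is present in every droplet. In barcodes of at most 100 UMIs, called near-empty here, Igf1 stood at 404 and 471 CPM in mCherry SD, 298 and 361 in mCherry HFD, 400.2 and 261 in Tert HFD, and 177 and 356 in TertCi HFD. Each member's level in a class was set beside its near-empty level in the same mouse. It was below it in 8 of 8 mice for Igf1 in progenitor-like nuclei, in both progenitor subclasses and in mesothelial-like nuclei, and for Igf2r in macrophage-like, perivascular macrophage-like and adipocyte-like nuclei. The same held for Igf1r and Igfbp4 in adipocyte-like nuclei, for Igfbp6 and Igfbp7 in adipocyte-like and macrophage-like nuclei, and for Igfbp7 in perivascular macrophage-like nuclei. Igfbp4 in macrophage-like nuclei was below it in 7 of 8 mice, Igfbp5 in adipocyte-like nuclei in 6 of 8 and Igf2r in endothelial-like nuclei in 5 of 7. These levels cannot be read as expression by those nuclei. In the other classes and subclasses in which a member passed a comparison between groups below, its level was under the near-empty one in at most 3 mice. How far free RNA enters each result was not tested.

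The diet was compared as mCherry HFD against mCherry SD, and the genotypes as Tert HFD or TertCi HFD against mCherry HFD, with edgeR's quasi-likelihood test on UMIs summed per mouse and class and Benjamini-Hochberg adjustment over all genes of the class. These 3 comparisons share the 2 mCherry HFD mice. Over the 6 classes 42 tests of members were possible per comparison, and 16 passed an adjusted p of 0.05 for diet (8 higher, 8 lower), 11 for Tert (3 higher, 8 lower) and 21 for TertCi (7 higher, 14 lower). The diet count fell to 8 without mCherry SD rep146 or without mCherry HFD rep128, and the TertCi count to 13 without TertCi HFD rep138.

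Many genes passed in these comparisons, and the members' counts are read against that. Of 7 members tested in adipocyte-like nuclei, 1 passed as higher and 1 as lower for diet, against 26.8% of all genes (15.9% higher, 10.9% lower). Higher and lower counts were 0 and 2 for Tert, against 10.9% (4.08%, 6.79%), and 2 and 3 for TertCi, against 24.8% (10.3%, 14.5%). Of 7 members tested in progenitor-like nuclei, 1 passed as higher and 2 as lower for diet, against 13.7% of all genes (8.91% higher, 4.76% lower). Higher and lower counts were 1 and 1 for Tert, against 12.1% (3.52%, 8.53%), and 1 and 3 for TertCi, against 22.3% (7.65%, 14.7%). Of 7 members tested in macrophage-like nuclei, 2 passed as higher and 2 as lower for diet, against 20.2% of all genes (11.3% higher, 8.96% lower). Higher and lower counts were 1 and 2 for Tert, against 18.7% (7.04%, 11.6%), and 2 and 3 for TertCi, against 25.1% (10.2%, 15%). For diet, the count in adipocyte-like nuclei is thus near the share of all genes.

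Of 7 members tested in endothelial-like nuclei, 1 passed as higher and 1 as lower for diet, against 3.07% of all genes (1.76% higher, 1.3% lower). Higher and lower counts were 1 and 1 for Tert, against 10.5% (3.94%, 6.52%), and 1 and 1 for TertCi, against 18% (7.53%, 10.4%). Of 6 members tested in mural-like nuclei, 2 passed as higher and 0 as lower for diet, against 7.29% of all genes (3.44% higher, 3.85% lower). Higher and lower counts were 0 and 1 for Tert, against 4.15% (1.51%, 2.64%), and 0 and 2 for TertCi, against 8.66% (3.2%, 5.46%). Of 8 members tested in mesothelial-like nuclei, 1 passed as higher and 2 as lower for diet, against 13.7% of all genes (9.27% higher, 4.42% lower). Higher and lower counts were 0 and 1 for Tert, against 5.01% (1.06%, 3.95%), and 1 and 2 for TertCi, against 13.5% (5.17%, 8.28%). Only the mCherry SD mouse rep146 had 20 nuclei of the endothelial-like and mural-like classes, so the diet comparison there set 2 mice against 1.

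In macrophage-like nuclei the median log2 fold change of the members tested was 1.14 for diet against 0.10 for all genes, -1.05 for Tert against -0.05, and -0.63 for TertCi against -0.07. Of the members in these medians, Igf2r, Igfbp5, Igfbp6 and Igfbp7 were below the near-empty level in 8 of 8 mice. Igfbp4 was below it in 7 of 8, and Igf1 and Igf1r in 1 of 8 each. These medians therefore cannot be read as a shift in expression by macrophage-like nuclei. In the other 5 classes the members' median ran from -0.51 to 0.77 for diet, from -0.52 to -0.01 for Tert and from -0.66 to 0.24 for TertCi.

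**Figure D2:**
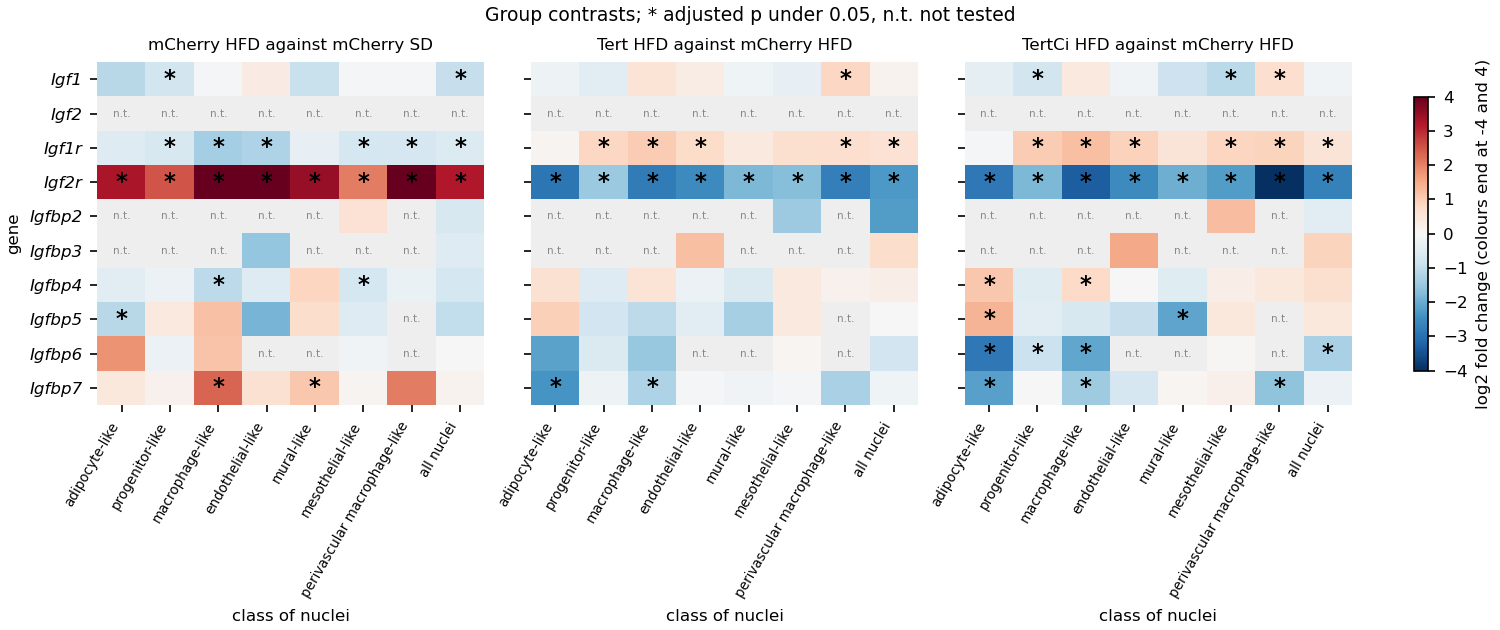
Log2 fold change from edgeR, given by colour, of each of the 10 genes (y axis) in each class of nuclei, perivascular macrophage-like nuclei and all nuclei (x axis), with 1 panel each for diet, Tert and TertCi; an asterisk marks an adjusted p under 0.05 and n.t. a gene not tested. Igf2r is red for diet and blue for both genotypes in every column, and the asterisks of Igf1r have the opposite colours.

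Nuclei of 1 class lay in different clusters by group, so that a difference within a class can also be one between clusters, and these cannot be told apart. Perivascular macrophage-like nuclei of mCherry HFD lay mostly in cluster 10 (672 of 688 and 234 of 252), while those of the other groups lay mostly in cluster 5 (73 of 75 and 124 of 124 in mCherry SD, 510 of 570 and 316 of 317 in Tert HFD, 621 of 632 in TertCi HFD rep138 and all in rep140). Interstitial progenitor-like nuclei of mCherry HFD lay mostly in cluster 14 (609 of 624 and 196 of 208) and those of the other groups in cluster 12 (299 of 307 and 75 of 77 in TertCi HFD). The other progenitor-like nuclei of mCherry HFD were mostly in cluster 11, and those of the other groups in cluster 3, with cluster 20 shared by all 8 mice (24 to 193 nuclei). Lipid-associated macrophage-like nuclei of mCherry HFD were mostly in clusters 1 and 4, and most of those of Tert HFD rep136 and both TertCi HFD mice in cluster 13. Adipocyte-like nuclei of mCherry SD were mostly in cluster 7, of mCherry HFD in cluster 9, of TertCi HFD rep138 in cluster 0 and of Tert HFD rep136 in cluster 17. The endothelial-like, mural-like and mesothelial-like classes were 1 cluster each.

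Igf1 encodes the ligand. In adipocyte-like nuclei it stood at 719.8 and 744 CPM in mCherry SD, 382 and 509.8 in mCherry HFD, 353 and 251 in Tert HFD, and 132 and 335 in TertCi HFD. The 2 mCherry SD mice were above all 6 mice on the high-fat diet, but the diet difference of -1.12 ± 0.40 (log2, SE) did not pass the test (adjusted p = 0.0676). Progenitor-like nuclei had Igf1 at 289.6 and 324 CPM in mCherry SD, 206 and 229 in mCherry HFD, 181 and 103 in Tert HFD, and 118 and 108 in TertCi HFD. These are the levels below the near-empty ones. The groups did not overlap between mCherry SD, mCherry HFD and either genotype there, and diet gave -0.73 ± 0.19 (adjusted p = 0.0224) and TertCi -0.72 ± 0.18 (0.0148), while Tert gave -0.42 ± 0.18 (0.154) and did not pass. These calls were lost without either mouse of either group compared (-0.81 to -0.64 for diet and -0.80 to -0.63 for TertCi over all mice left out), and the near-empty level of the same mice also differed between groups, as given above. The makeup of the class moved with the groups too: interstitial progenitor-like nuclei were 64 of 196 and 81 of 239 in mCherry SD, 624 of 1342 and 208 of 472 in mCherry HFD, 264 of 740 and 116 of 640 in Tert HFD, and 307 of 1179 and 77 of 384 in TertCi HFD. Diet passed in neither subclass, at 0.35 ± 0.32 (adjusted p = 0.576) in interstitial and -0.65 ± 0.21 (0.0619) in the other progenitor-like nuclei, while TertCi passed in both. Within cluster 20, which all mice shared, Igf1 stood at 284 and 259.6 CPM in mCherry SD, 479.6 and 482 in mCherry HFD, 318 and 171 in Tert HFD, and 253 and 257 in TertCi HFD. There the mCherry HFD mice were above all others, so that the diet direction was the opposite of that of the class.

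Perivascular macrophages are resident cells along vessels. In perivascular macrophage-like nuclei Igf1 stood at 566 and 488 CPM in mCherry SD, 517 and 602 in mCherry HFD, 1036 and 830.4 in Tert HFD, and 663 and 1006 in TertCi HFD. All 4 mice with Tert or TertCi were above both mCherry HFD mice, and the 2 diets overlapped. The difference was 0.83 ± 0.18 for Tert (adjusted p = 0.00504) and 0.68 ± 0.18 for TertCi (0.0131), in a subclass where 11.6% and 18.2% of all genes passed. The Tert call was lost without mCherry HFD rep128 (0.71 to 0.95 over all mice left out) and the TertCi call without that mouse or TertCi HFD rep140 (0.39 to 0.98). Within cluster 5 alone Igf1 stood at 569.7 and 488 CPM in mCherry SD, 588 and 775 in mCherry HFD, 1072 and 836 in Tert HFD, and 664 and 1006 in TertCi HFD, with 16 and 18 nuclei in mCherry HFD. There both Tert mice were above both mCherry HFD mice, and TertCi and mCherry HFD overlapped.

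The difference between perivascular macrophage-like and progenitor-like nuclei was itself tested, on sums over the clusters named above. For Igf1 it was 1.35 ± 0.20 for Tert (adjusted p = 1.15e-08) and 1.42 ± 0.20 for TertCi (3.92e-10), where 3.14% and 5.65% of all genes passed. The progenitor-like side of it was below the near-empty level in every mouse and the perivascular macrophage-like side in none. Both passed without each of the 8 mice in turn, at 1.05 to 1.55 and 1.16 to 1.76. For diet it was 0.69 ± 0.21 (0.0309, 3.92% of all genes), and this call was lost without mCherry SD rep146, mCherry HFD rep128 or mCherry HFD rep129.

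In macrophage-like nuclei as a whole Igf1 stood at 499 and 436 CPM in mCherry SD, 452 and 533 in mCherry HFD, 853 and 466 in Tert HFD, and 490.3 and 688 in TertCi HFD, the groups overlapped, and neither Tert (0.54 ± 0.23, adjusted p = 0.14) nor TertCi (0.40 ± 0.23, 0.244) passed. The makeup of this class moved with the groups: lipid-associated macrophage-like nuclei, in which Igf1 was lower than in perivascular ones, numbered 2592 and 1024 of 3372 and 1299 macrophage-like nuclei in mCherry HFD, 8 of 99 and 8 of 153 in mCherry SD, 213 of 882 and 489 of 902 in Tert HFD, and 258 of 1097 and 80 of 285 in TertCi HFD. Macrophage-like nuclei held 2.33% ± 0.0866 (SD, n = 2) of the Igf1 UMIs of all nuclei in mCherry SD. On the high-fat diet they held 47.3% ± 3.36 with mCherry, 35.5% ± 1.77 with Tert and 26.9% ± 13.4 with TertCi. Nuclei called mixed, which entered no class, held 62.8% ± 3.83 in mCherry SD, the largest share there, and 17.6% ± 0.166, 29.1% ± 6.92 and 32.2% ± 16.7 on the high-fat diet in the same order, so the shares of the named classes cannot be set against each other between groups. Adipocyte-like nuclei held 29.7% ± 3.78, 9.9% ± 0.731, 22.3% ± 10.4 and 29% ± 0.776 in the same order.

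In mesothelial-like nuclei Igf1 stood at 197 and 279 CPM in mCherry SD, 219.6 and 299 in mCherry HFD, 191 and 212 in Tert HFD, and 86.7 and 133 in TertCi HFD. The TertCi mice were the lowest and overlapped no other group, with -1.08 ± 0.25 against mCherry HFD (adjusted p = 0.00823); the call was lost without mCherry HFD rep129 or TertCi HFD rep138 (-1.37 to -0.72 over all mice left out). All 8 values were below the near-empty level of the same mouse. Among progenitors, the interstitial progenitor-like subclass, named from markers such as Dpp4 and Pi16, stood at 83 and 105 CPM in mCherry SD, 136.2 and 133.8 in mCherry HFD, 111 and 33.9 in Tert HFD, and 24.1 and 43.6 in TertCi HFD. TertCi was the lower there by -2.08 ± 0.33 (adjusted p = 8.45e-05), a call that held without each mouse, at levels below the near-empty ones, and 15.8% of all genes passed. Within cluster 12 alone Igf1 stood at 83 and 105 CPM in mCherry SD, 8.54 and 23.7 in mCherry HFD, 114 and 30.04 in Tert HFD, and 18.7 and 41.7 in TertCi HFD, with 15 and 12 nuclei in mCherry HFD, where mCherry HFD and TertCi overlapped.

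Over all nuclei Igf1 stood at 479 and 541 CPM in mCherry SD, 337 and 397 in mCherry HFD, 394 and 255 in Tert HFD, and 176 and 295 in TertCi HFD, and diet gave -0.93 ± 0.27 (adjusted p = 0.0257). In such a sum, fewer cells of a type and less RNA per cell cannot be told apart. Of the 9 members tested over all nuclei, 3 passed for diet, 2 for Tert and 3 for TertCi, against 40.7%, 21.7% and 35.5% of all genes. The diet call of Igf1 was lost when counts were scaled to the total alone (-0.47) and without any of the 4 mice compared.

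Igf2 was at or near 0 everywhere. Over all nuclei it had 0 and 1 UMIs in mCherry SD, 2 and 0 in mCherry HFD, 1 and 0 in Tert HFD and 1 and 0 in TertCi HFD. A count of 0 allows up to 0.194, 0.242, 0.393 and 0.202 CPM in the 4 mice without a UMI (3 counts, for counting error only). Igf2 passed the low-count filter in no class and gave no test, so a difference between groups was not detectable at this depth.

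**Figure D3:**
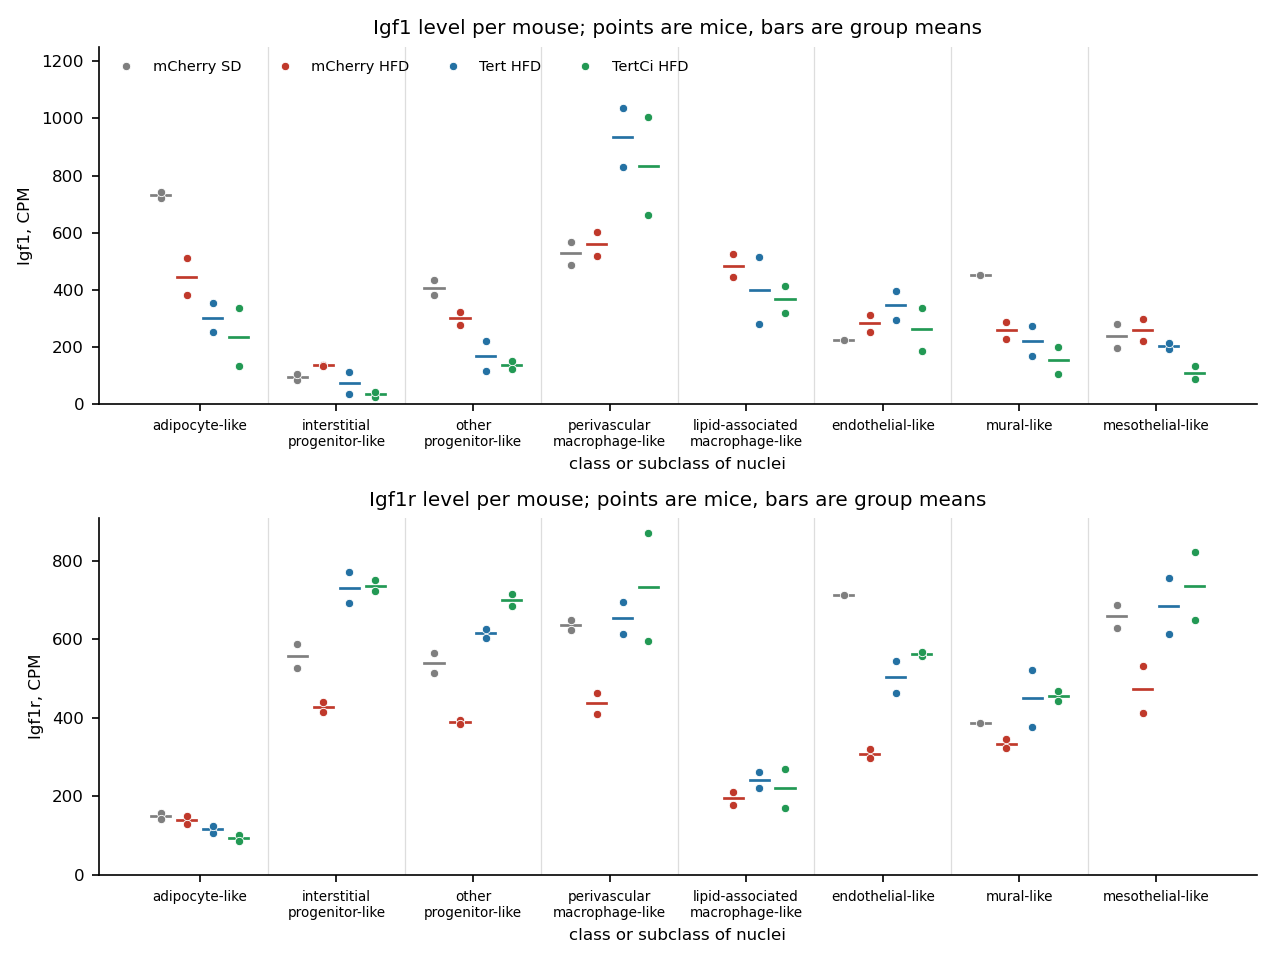
Igf1 (upper panel) and Igf1r (lower panel) in CPM of the UMIs of a class or subclass (y axis) by class or subclass of nuclei (x axis), 1 point per mouse coloured by group, with bars at group means. Igf1 is higher in all 4 mice with Tert or TertCi than in the mCherry HFD mice in perivascular macrophage-like nuclei, and Igf1r is lowest in the mCherry HFD mice in both progenitor-like subclasses.

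Igf1r encodes the signalling receptor. It was lower in mCherry HFD than in the other groups in progenitor-like, macrophage-like, endothelial-like and perivascular macrophage-like nuclei. In progenitor-like nuclei it stood at 518 and 574 CPM in mCherry SD, 405 and 412 in mCherry HFD, 651 and 632 in Tert HFD, and 725 and 692 in TertCi HFD. The 2 mCherry HFD mice were the lowest and overlapped no other group, with -0.65 ± 0.14 for diet (adjusted p = 0.00989), 0.83 ± 0.14 for Tert (0.00332) and 1.01 ± 0.14 for TertCi (0.000506). The TertCi call held under all 17 alternatives, the diet call was lost without mCherry HFD rep128 or rep129 (-0.69 to -0.62 over all mice left out) and the Tert call without mCherry HFD rep128 (0.80 to 0.90).

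In macrophage-like nuclei Igf1r stood at 565 and 580.3 CPM in mCherry SD, 229 and 266 in mCherry HFD, 491 and 417 in Tert HFD, and 631 and 403 in TertCi HFD. Again the mCherry HFD mice were below all others, at -1.36 ± 0.18 for diet (adjusted p = 0.000181), 1.01 ± 0.17 for Tert (0.00186) and 1.21 ± 0.17 for TertCi (0.000388), and these 3 calls held under all 17 alternatives. Lipid-associated macrophage-like nuclei, which made up most of this class in both mCherry HFD mice, had a lower Igf1r level than perivascular ones in every mouse that had 20 nuclei of each.

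Within the perivascular macrophage-like subclass, Igf1r stood at 625 and 649 CPM in mCherry SD, 409.9 and 465 in mCherry HFD, 614 and 696 in Tert HFD, and 870.1 and 597 in TertCi HFD. The mCherry HFD mice were again below all others, with -0.69 ± 0.18 for diet (adjusted p = 0.0121; 14.1% of all genes passed), 0.67 ± 0.17 for Tert (0.0124) and 0.88 ± 0.17 for TertCi (0.000976). The diet call was lost without mCherry SD rep144, mCherry SD rep146 or mCherry HFD rep128 (-0.76 to -0.57), the Tert call without mCherry HFD rep128 or Tert HFD rep136 (0.55 to 0.82) and the TertCi call without TertCi HFD rep138 (0.58 to 1.14). Within cluster 5 alone Igf1r stood at 609.8 and 649 CPM in mCherry SD, 462 and 356 in mCherry HFD, 630.2 and 702 in Tert HFD, and 870.5 and 597 in TertCi HFD, and the mCherry HFD mice were below all others there too. In lipid-associated macrophage-like nuclei, where mCherry SD had only 8 nuclei per mouse and no value is given, Igf1r stood at 179 and 211 CPM in mCherry HFD, 221 and 263 in Tert HFD, and 270.3 and 171 in TertCi HFD, and no call was made.

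In endothelial-like nuclei Igf1r stood at 714 CPM in mCherry SD rep146, 298 and 319.9 in mCherry HFD, 545 and 462 in Tert HFD, and 558 and 568 in TertCi HFD. The mCherry HFD mice were the lowest, with -1.24 ± 0.25 for diet (adjusted p = 0.00937), 0.74 ± 0.19 for Tert (0.0152) and 0.93 ± 0.19 for TertCi (0.00178), and each of these calls was lost without mCherry HFD rep128. The Tert call was lost also without mCherry HFD rep129 or Tert HFD rep134.

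In mesothelial-like nuclei Igf1r stood at 687 and 629.7 CPM in mCherry SD, 534 and 413 in mCherry HFD, 757 and 613 in Tert HFD, and 822 and 651 in TertCi HFD, and the mCherry HFD mice were below all others. Diet gave -0.70 ± 0.20 (adjusted p = 0.0269) and TertCi 0.87 ± 0.21 (0.00853), while Tert gave 0.63 ± 0.21 (0.0976). The diet call was lost without mCherry SD rep144 or either mCherry HFD mouse (-0.82 to -0.56) and the TertCi call without mCherry HFD rep129 or TertCi HFD rep138 (0.70 to 1.03). In mural-like nuclei no comparison passed.

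In adipocyte-like nuclei no comparison of Igf1r passed. It was at 157 and 141 CPM in mCherry SD, 130.0 and 151 in mCherry HFD, 107 and 125 in Tert HFD, and 102 and 85.8 in TertCi HFD there, below the near-empty level, and diet gave -0.50 ± 0.22 (adjusted p = 0.111), Tert 0.11 ± 0.22 (0.786) and TertCi -0.06 ± 0.22 (0.876); the sign of the last pair changed with the scaling or the naming of classes. With nuclei named 1 by 1 TertCi gave 0.63 and passed (adjusted p = 0.0431), in the direction of the other classes, whereas scaled to total counts it gave -0.58 and passed too (0.0399). The difference between adipocyte-like and progenitor-like nuclei was -0.80 ± 0.21 for Tert (adjusted p = 0.0291; 3.85% of all genes passed) and -1.13 ± 0.21 for TertCi (0.000966; 7.27%).

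Over all nuclei Igf1r stood at 345 and 329 CPM in mCherry SD, 336 and 303 in mCherry HFD, 405 and 337 in Tert HFD, and 353 and 307 in TertCi HFD. In CPM mCherry HFD overlapped mCherry SD and TertCi HFD, and the lower Tert HFD mouse was level with the higher mCherry HFD mouse, rep128. Of the Igf1r UMIs of rep128, 14.6% (3225) came from 120 epithelial-like nuclei that no other mouse had. Without them rep128 stood at 292 CPM, and both mCherry HFD mice were below all others. With all nuclei, the calls of the fit (-0.54 ± 0.13 for diet, 0.57 ± 0.13 for Tert and 0.52 ± 0.13 for TertCi, adjusted p = 0.0157, 0.0245 and 0.0208) came with TMM scaling, which reads a library against the bulk of its genes. Scaled to total counts the same differences were -0.07, 0.21 and 0.04, with no call. Without the epithelial-like nuclei, an alternative chosen after seeing the data, the TMM fit gave -0.64, 0.67 and 0.61, and all 3 passed (adjusted p = 0.00804, 0.0142 and 0.0108). Each of the 3 calls with all nuclei was lost without mCherry HFD rep128 or rep129, the diet call also without mCherry SD rep144, the Tert call without Tert HFD rep136 and the TertCi call without either TertCi mouse (-0.68 to -0.44, 0.54 to 0.62 and 0.49 to 0.57 over all mice left out).

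Igf2r encodes the lysosomal enzyme and IGF2 receptor, and it differed most between groups of all members in each of the 6 classes for diet. In macrophage-like nuclei it stood at 17.8 and 18 CPM in mCherry SD, 611 and 516 in mCherry HFD, 89.1 and 55.9 in Tert HFD, and 53.3 and 50.4 in TertCi HFD. The mCherry HFD mice were above every other mouse by a wide margin, and the mCherry SD mice were the lowest. The makeup of this class moved with the groups, as given for Igf1. Lipid-associated macrophage-like nuclei were 8 of 99 and 8 of 153 in mCherry SD, and 2592 of 3372 and 1024 of 1299 in mCherry HFD. Igf2r was higher in them than in perivascular macrophage-like nuclei in every mouse that had 20 nuclei of each. The fit gave 28.6-fold for diet (4.84 ± 0.25 on the log2 scale, adjusted p = 2.66e-07), -2.81 ± 0.18 for Tert (3.98e-06) and -3.30 ± 0.19 for TertCi (7.05e-07). Near-empty barcodes of the same mice stood at 43.5 and 62.5 CPM in mCherry SD, 640.3 and 818 in mCherry HFD, 132 and 65.9 in Tert HFD, and 86.6 and 54.9 in TertCi HFD, above the macrophage-like level in 8 of 8 mice, and there too both mCherry HFD mice were above all others.

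In adipocyte-like nuclei Igf2r stood at 24.8 and 21.5 CPM in mCherry SD, 282 and 306 in mCherry HFD, 40.3 and 21.8 in Tert HFD, and 37.1 and 17.9 in TertCi HFD. Both mCherry HFD mice were above all others, with 3.27 ± 0.32 for diet (adjusted p = 0.000221), -2.88 ± 0.31 for Tert (0.00178) and -2.87 ± 0.30 for TertCi (0.000531). The adipocyte-like level was also below the near-empty level in 8 of 8 mice. Igf2r in progenitor-like nuclei stood at 78.7 and 80.1 CPM in mCherry SD, 514 and 546 in mCherry HFD, 213 and 122 in Tert HFD, and 135.8 and 127 in TertCi HFD. Here 2 of 8 mice were below their near-empty level and the genotype groups lay between the 2 diets, with 2.51 ± 0.21 for diet (adjusted p = 8.16e-05), -1.48 ± 0.18 for Tert (0.000854) and -1.79 ± 0.18 for TertCi (0.000116).

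Endothelial-like, mural-like and mesothelial-like nuclei had the same order of groups at the top. In mesothelial-like nuclei Igf2r stood at 71.6 and 122 CPM in mCherry SD, 436 and 471 in mCherry HFD, 141 and 111 in Tert HFD, and 82.5 and 81 in TertCi HFD. In mural-like nuclei it was 65.7 CPM in mCherry SD rep146, 782 and 818 in mCherry HFD, 293 and 111 in Tert HFD, and 202 and 185 in TertCi HFD. Over these 3 classes diet gave 2.03 to 4.24, Tert -2.54 to -1.69 and TertCi -2.55 to -1.95 on the log2 scale, and all 9 passed (adjusted p at most 0.000615). Of the 18 class results of Igf2r, the mCherry HFD mice overlapped no other group in any, and 15 held under every alternative; the Tert call in mesothelial-like nuclei was lost without Tert HFD rep134 (-1.98 to -1.63 over all mice left out).

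In perivascular macrophage-like nuclei Igf2r stood at 3.91 and 6.92 CPM in mCherry SD, 225 and 146.2 in mCherry HFD, 30.7 and 17.8 in Tert HFD, and 7.54 and 1.84 in TertCi HFD, below the near-empty level in 8 of 8 mice. Within cluster 5 alone it stood at 4.01 and 6.92 CPM in mCherry SD, 33.6 and 83.7 in mCherry HFD (16 and 18 nuclei), 17 and 18 in Tert HFD, and 7.3 and 1.84 in TertCi HFD. Within progenitor cluster 20 Igf2r stood at 91.3 and 59.9 CPM in mCherry SD, 369.8 and 531 in mCherry HFD (81 and 24 nuclei), 159 and 105 in Tert HFD, and 99 and 98.4 in TertCi HFD. In both clusters the mCherry HFD mice were above all others. Their cluster 5 values rest on few nuclei and are far below their near-empty levels of 640.3 and 818 CPM. Over the whole perivascular macrophage-like subclass the diet difference exceeded that in the whole progenitor-like class by 2.33 ± 0.54 (adjusted p = 0.00122). The Tert and TertCi differences were the more negative by -1.30 ± 0.24 (1.41e-05) and -2.91 ± 0.32 (1.64e-16). Both sums hold different clusters by group, as given above. The diet value was lost without mCherry SD rep146 or mCherry HFD rep128 (1.88 to 3.00 over all mice left out) and the Tert value without mCherry HFD rep128 or Tert HFD rep134 (-1.61 to -0.84), while the TertCi value passed without each mouse (-4.70 to -2.45). In lipid-associated macrophage-like nuclei it stood at 731 and 629.6 CPM in mCherry HFD, 262 and 86.4 in Tert HFD, and 182 and 149 in TertCi HFD. Tert gave -1.82 ± 0.36 (adjusted p = 0.0297; 8.47% of all genes passed) and TertCi -1.86 ± 0.38 (0.0307; 10.1%). Both calls were lost without either mCherry HFD or either TertCi mouse (-2.71 to -1.35 and -2.02 to -1.75). Over all nuclei Igf2r stood at 38.6 and 42.6 CPM in mCherry SD, 526 and 501 in mCherry HFD, 113 and 55.5 in Tert HFD, and 64.2 and 49.9 in TertCi HFD.

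**Figure D4:**
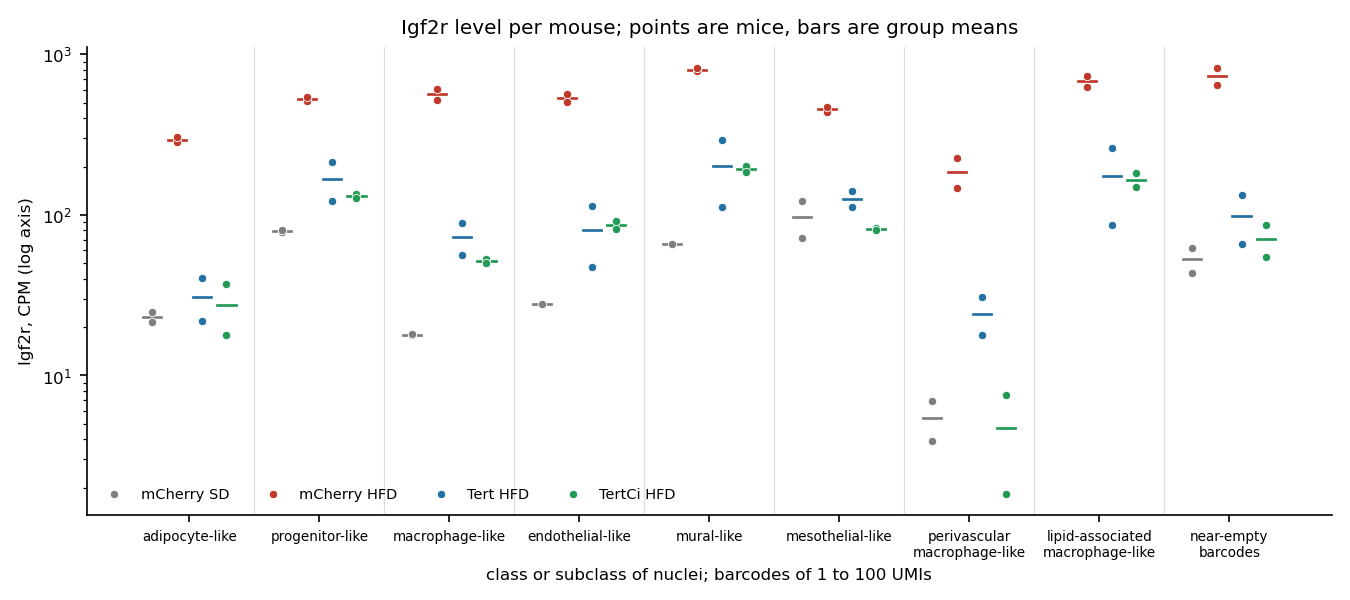
Igf2r in CPM (y axis, log scale) by class or subclass of nuclei and in near-empty barcodes (x axis), 1 point per mouse coloured by group, with bars at group means. In every column the 2 mCherry HFD mice lie above all other mice shown.

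Markers of lipid-associated macrophages, like Igf2r, were highest in both mCherry HFD mice in each of the 6 classes. The summed level of 8 such markers (among them Trem2, Gpnmb and Spp1) stood at 39.2 and 75.6 CPM in mCherry SD, 1236 and 1042 in mCherry HFD, 249 and 218 in Tert HFD, and 163 and 134.2 in TertCi HFD in adipocyte-like nuclei. Within the lipid-associated macrophage-like subclass the sum was 6484 and 5505 in mCherry HFD, 5716 and 3836 in Tert HFD, and 5320 and 5430 in TertCi HFD. There Tert HFD overlapped mCherry HFD and TertCi HFD lay close below it, although Igf2r was lower in both. In near-empty barcodes the sum was 126 and 127 CPM in mCherry SD, 3429.8 and 3476 in mCherry HFD, 919 and 1118 in Tert HFD, and 486 and 566 in TertCi HFD and was highest in mCherry HFD, as Igf2r was there. In the mCherry HFD mice all 8 markers were detected in every class, whereas Spp1 was at 0 in macrophage-like nuclei of both mCherry SD and both TertCi HFD mice.

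The ratio of Igf2r to these markers differed between classes. In mCherry HFD there were 11.3 and 11.4 Igf2r UMIs per 100 marker UMIs in lipid-associated macrophage-like nuclei, 14.4 and 15.5 in endothelial-like, 18.7 and 23.5 in near-empty barcodes, 22.8 and 29.3 in adipocyte-like, 47.1 and 53.1 in mural-like, and 60.1 and 75.7 in progenitor-like nuclei. In lipid-associated macrophage-like nuclei of the other high-fat groups there were 4.59 and 2.25 in Tert HFD and 3.43 and 2.74 in TertCi HFD. In mCherry HFD the ratio was thus higher in progenitor-like and mural-like nuclei than in the macrophages or the free RNA of the same mice. In mesothelial-like nuclei of these mice it was 24.2 and 24.1. In progenitor-like nuclei the groups overlapped. The ratio there was 48.2 and 81.5 in mCherry SD, 64 and 44.9 in Tert HFD, and 65.2 and 96.7 in TertCi HFD. In mural-like nuclei it was 200 in mCherry SD rep146, 102 and 24.4 in Tert HFD, and 98.9 and 325 in TertCi HFD. These mural-like values rest on as few as 5 marker UMIs. How much of Igf2r in the other classes came from free RNA was not tested.

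Per the GENCODE M21 annotation of GRCm38, Igf1 overlaps Igf1os, and Igfbp7 overlaps Polr2b and Gm34648, each on the opposite strand. Igf2r lies on the minus strand and overlaps Airn on the plus strand. Whether counting used strand is not stated, so it is not known whether reads of such genes were told apart where they overlap. The stretches before the start sites of Igf2r and Airn are printed because imprinting of this pair turns on methylation of CpG-rich sequence, and capitals mark each CG. They are the 250 bases upstream of the RefSeq start in GRCm38.p6, at chr17:12769707-12769956 on the minus strand for Igf2r and at chr17:12741061-12741310 on the plus strand for Airn, each read 5′ to 3′.
Igf2r: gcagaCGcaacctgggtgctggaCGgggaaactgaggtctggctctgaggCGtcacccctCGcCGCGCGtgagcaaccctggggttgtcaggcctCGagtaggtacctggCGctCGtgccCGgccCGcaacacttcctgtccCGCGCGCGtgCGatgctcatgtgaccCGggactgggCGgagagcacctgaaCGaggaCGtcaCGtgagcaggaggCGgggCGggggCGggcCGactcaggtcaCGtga
Airn: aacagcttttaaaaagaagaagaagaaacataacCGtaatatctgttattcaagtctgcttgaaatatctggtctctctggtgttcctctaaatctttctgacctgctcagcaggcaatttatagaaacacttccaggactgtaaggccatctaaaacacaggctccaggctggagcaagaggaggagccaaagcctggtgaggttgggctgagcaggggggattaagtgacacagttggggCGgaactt
The Igf2r stretch holds 27 CG and 8.56% of 32851 RefSeq promoters of this length hold at least as many, whereas the Airn stretch holds 2, a number that 81.2% reach. Only bases upstream of each start were counted, and sequence past the start was not. The numbers therefore do not show which of the 2 genes has the CpG-rich sequence that imprinting turns on. No methylation was measured here, and the counts draw on no sequence.

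Airn moved with Igf2r in some classes and not in others. In macrophage-like nuclei Airn stood at 169 and 149 CPM in mCherry SD, 1905 and 1721 in mCherry HFD, 684 and 819 in Tert HFD, and 618 and 589.9 in TertCi HFD. Diet gave 3.38 ± 0.19 there (adjusted p = 2.66e-07), Tert -1.13 ± 0.16 (0.000604) and TertCi -1.44 ± 0.16 (7.08e-05). In progenitor-like nuclei it stood at 1411 and 1412 CPM in mCherry SD, 1922 and 1966 in mCherry HFD, 2005 and 1497 in Tert HFD, and 1873 and 1985 in TertCi HFD. The mCherry SD mice were the lowest there, the 3 high-fat groups overlapped, and diet gave 0.23 ± 0.15 (adjusted p = 0.331), Tert 0.02 ± 0.15 (0.962) and TertCi 0.21 ± 0.15 (0.348), in the same nuclei in which Igf2r passed in all 3. In adipocyte-like nuclei Airn passed in all 3 comparisons (1.73 ± 0.18, -1.33 ± 0.18 and -1.13 ± 0.18). It did so too in perivascular macrophage-like nuclei (2.76, -1.60 and -2.61). In mesothelial-like nuclei it passed in none (-0.08, -0.46 and -0.04), nor in lipid-associated macrophage-like nuclei for Tert (-0.22) or TertCi (-0.03), where Igf2r passed. Diet, Tert and TertCi gave 2.07, -0.996 and -0.74 in endothelial-like nuclei, and all 3 passed. In mural-like nuclei they gave 0.92, 0.04 and 0.23, and diet alone passed. The diet comparison in both classes set 2 mice against 1.

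Gm49959, a long non-coding RNA gene matched by its identifier, lies on the strand of Igf2r and overlaps Airn in the same annotation. It was the gene most alike to Igf2r over 47 sums of class and mouse (Pearson r = 0.93 of log2(CPM + 5), a description with no test). In progenitor-like nuclei it gave 4.74 ± 0.76 for diet (adjusted p = 0.00716), -2.49 ± 0.48 for Tert (0.0149) and -2.67 ± 0.49 for TertCi (0.00678), larger in size than Igf2r in each. These rest on 2 and 5 UMIs in mCherry SD, 1238 and 231 in mCherry HFD, 152 and 4 in Tert HFD, and 94 and 24 in TertCi HFD.

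In each of the 3 comparisons every binding protein passed in fewer classes than Igf1r and Igf2r, though not always in fewer than Igf1. These are counts with no test, and some binding proteins were tested in fewer classes. Igfbp4 encodes a binding protein that restrains IGF until it is cut by pregnancy-associated plasma protein A. In macrophage-like nuclei it stood at 56.5 and 65.2 CPM in mCherry SD, 26.4 and 41.1 in mCherry HFD, 49.7 and 37.1 in Tert HFD, and 52.6 and 49.5 in TertCi HFD. The mCherry SD mice were the highest, and diet gave -1.04 ± 0.27 (adjusted p = 0.0167) and TertCi 0.78 ± 0.23 (0.026). The diet call was lost without either mCherry SD mouse or mCherry HFD rep128 (-1.39 to -0.76) and the TertCi call without mCherry HFD rep128 or either TertCi mouse (0.48 to 1.11).

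In mesothelial-like nuclei Igfbp4 stood at 131 and 107 CPM in mCherry SD, 90.5 and 79.6 in mCherry HFD, 106 and 111 in Tert HFD, and 94.1 and 78.1 in TertCi HFD. Diet gave -0.71 ± 0.22 (adjusted p = 0.039), lost without mCherry SD rep144 or either mCherry HFD mouse (-0.89 to -0.51). In adipocyte-like nuclei, at 42.1 and 39 CPM in mCherry SD, 35 and 46.8 in mCherry HFD, 60.5 and 34.8 in Tert HFD, and 73 and 43.3 in TertCi HFD, TertCi gave 1.07 ± 0.28 (0.0193) although the CPM of the 2 groups overlapped. The near-empty level of Igfbp4, 121 and 57.9 CPM in mCherry SD, 72.3 and 115 in mCherry HFD, 67.6 and 58.7 in Tert HFD, and 82.3 and 50.5 in TertCi HFD, was above the adipocyte-like level in 8 of 8 mice and above the macrophage-like level in 7. Scaled to total counts it was 0.55, with no call, and the call was lost also without mCherry HFD rep128 or TertCi HFD rep138 (0.71 to 1.41).

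Igfbp5 encodes a binding protein that also attaches to the extracellular matrix. In adipocyte-like nuclei it stood at 35.3 and 52 CPM in mCherry SD, 21.6 and 34.8 in mCherry HFD, 44.9 and 35.2 in Tert HFD, and 42.1 and 52.3 in TertCi HFD. The mCherry HFD mice were the lowest, with -1.12 ± 0.29 for diet (adjusted p = 0.0165) and 1.35 ± 0.28 for TertCi (0.00779), at levels below the near-empty ones in 6 of 8 mice. Scaled to total counts these were -0.71 and 0.81 with no call; the diet call was lost also without mCherry SD rep146 or mCherry HFD rep128 (-1.49 to -0.71), and the TertCi call without the latter (0.94 to 1.72).

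In mural-like nuclei Igfbp5 was 98.5 CPM in mCherry SD rep146, 164 and 188 in mCherry HFD, 92.6 and 11.1 in Tert HFD, and 47.7 and 14.3 in TertCi HFD. Both mCherry HFD mice were the highest, and TertCi gave -2.11 ± 0.46 (adjusted p = 0.00419), a call that held without each mouse. These rest on 22 and 2 UMIs in the TertCi mice.

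Igfbp6 encodes the binding protein that prefers IGF2. In progenitor-like nuclei it stood at 56.4 and 44.6 CPM in mCherry SD, 55.5 and 41.8 in mCherry HFD, 31.2 and 26.9 in Tert HFD, and 24.8 and 21.4 in TertCi HFD. The 4 mice with Tert or TertCi were below the 4 with mCherry alone, and TertCi gave -0.87 ± 0.23 (adjusted p = 0.0157), lost without mCherry HFD rep128 or either TertCi mouse (-1.02 to -0.63). The share of interstitial progenitor-like nuclei in this class moved with the groups, as given for Igf1. By subclass, TertCi passed as lower in the other progenitor-like nuclei (19.7% of all genes passed) and not in interstitial ones (15.8%). In adipocyte-like nuclei, at 1.08 and 4.38 CPM in mCherry SD, 12.7 and 14.9 in mCherry HFD, 2.91 and 1.74 in Tert HFD, and 1.82 and 0.259 in TertCi HFD, TertCi gave -2.87 ± 0.64 (0.0104), lost without mCherry HFD rep128 (-4.98 to -2.35). In macrophage-like nuclei, at 1.80 to 17.9 CPM over mice, TertCi gave -2.09 ± 0.60 (0.0208), lost without either TertCi mouse (-2.72 to -2.0). The near-empty level of Igfbp6 was 44.4 and 40.1 CPM in mCherry SD, 61 and 136.2 in mCherry HFD, 43.8 and 11.2 in Tert HFD, and 19.1 and 20.0 in TertCi HFD, above both of these low levels in every mouse and highest in mCherry HFD as they were.

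Igfbp7 encodes a low-affinity IGF-binding protein of vessel walls, also known as angiomodulin. In mural-like nuclei it was 243 CPM in mCherry SD rep146, 573 and 543 in mCherry HFD, 515 and 478 in Tert HFD, and 529 and 599 in TertCi HFD. The single mCherry SD mouse was below the 6 others, and diet gave 1.08 ± 0.33 (adjusted p = 0.0442), lost without either mCherry HFD or either TertCi mouse (1.03 to 1.11). In progenitor-like nuclei, at 284 and 296 CPM in mCherry SD, 423 and 344 in mCherry HFD, 346 and 247 in Tert HFD, and 315 and 341 in TertCi HFD, mCherry SD and TertCi HFD lay below mCherry HFD and Tert HFD overlapped it, and no comparison passed in the class as a whole. In the interstitial progenitor-like subclass Igfbp7 passed as lower with Tert and with TertCi, where 8.5% and 15.8% of all genes passed. Its level there was below the near-empty one in 0 of 8 mice, and the groups lay in different clusters, as given above. With TertCi it also passed as lower in perivascular macrophage-like nuclei, at levels below the near-empty ones in 8 of 8 mice.

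In adipocyte-like nuclei Igfbp7 stood at 41 and 83.7 CPM in mCherry SD, 102 and 121 in mCherry HFD, 16.8 and 17 in Tert HFD, and 22.1 and 11.1 in TertCi HFD. The 4 mice with Tert or TertCi were the lowest, with -2.37 ± 0.36 for Tert (adjusted p = 0.00621) and -2.18 ± 0.35 for TertCi (0.0025); the Tert call was lost without mCherry HFD rep129 (-2.51 to -2.15). In macrophage-like nuclei it stood at 2.97 and 6.94 CPM in mCherry SD, 23.3 and 40.1 in mCherry HFD, 13.6 and 9.79 in Tert HFD, and 10.3 and 10.8 in TertCi HFD. Diet gave 2.34 ± 0.54 (adjusted p = 0.00835), lost without either mCherry SD mouse, which held 1 and 5 UMIs (1.90 to 3.17), and Tert gave -1.24 ± 0.33 (0.018) and TertCi -1.43 ± 0.35 (0.00879), both lost without mCherry HFD rep129 and the latter also without TertCi HFD rep138 (-1.59 to -0.82 and -1.78 to -1.0). The near-empty level of Igfbp7, 97.9 and 143 CPM in mCherry SD, 204 and 207 in mCherry HFD, 165 and 73 in Tert HFD, and 112 and 98.5 in TertCi HFD, was above the macrophage-like level of the same mouse in all 8 and above the adipocyte-like level in all 8.

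**Figure D5:**
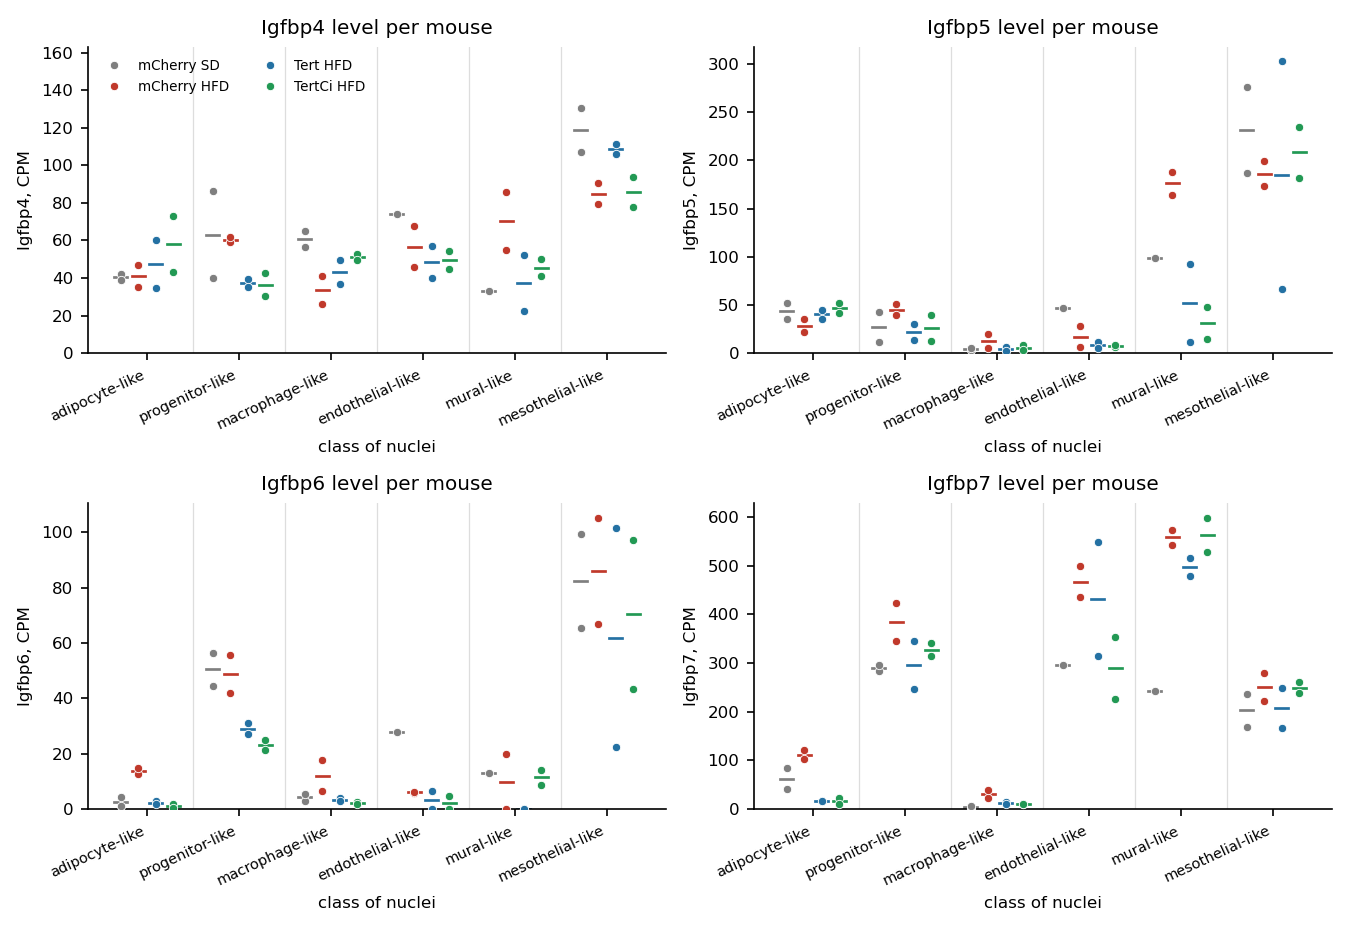
Igfbp4, Igfbp5, Igfbp6 and Igfbp7 (1 panel each) in CPM (y axis, linear, a range of its own in each panel) by class of nuclei (x axis), 1 point per mouse coloured by group, with bars at group means. Igfbp7 reaches 599 CPM in mural-like nuclei and stays at or below 40.1 in macrophage-like nuclei, and mesothelial-like nuclei have the highest group means of Igfbp5 and Igfbp6.

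The 2 remaining binding proteins were sparse. Igfbp2 in mesothelial-like nuclei stood at 5.26 and 3.97 CPM in mCherry SD, 10.3 and 5.79 in mCherry HFD, 2.31 and 11.1 in Tert HFD, and 25.4 and 0 in TertCi HFD, from at most 32 UMIs in a mouse, where the 0 of TertCi HFD rep140 allows up to 8.67 CPM, and Igfbp3 in endothelial-like nuclei at 4.77 to 32.5 CPM over 7 mice, also from at most 32 UMIs. The mCherry SD mice were below mCherry HFD for Igfbp2, and for Igfbp3 the mCherry HFD mice, at 8.5 and 12.3 CPM, were below the 1 mCherry SD mouse (27.8) and both TertCi mice (23.3 and 32.5). The other high-fat groups overlapped mCherry HFD, and none of the 8 class results passed (4 comparisons for each gene).

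Of 32 further genes of IGF and growth hormone signalling, 14 to 26 were tested per class, and a gene counts once for each class here. Over the 6 classes 9 of these tests passed as higher and 27 as lower for diet (7.03% and 21.1% of the tests), 17 and 9 for Tert (13.3% and 7.03% of the tests), and 36 and 12 for TertCi (28.1% and 9.38% of the tests), with the shares of all genes per class as given above. Of these 110 calls, 38 held without each mouse in turn and 27 under every alternative. Ghr encodes the growth hormone receptor, which drives Igf1. It was lower on the high-fat diet in 5 of 6 classes (-3.94 to -1.27 on the log2 scale), higher with Tert in 4 (0.91 to 1.97) and higher with TertCi in 5 (0.88 to 2.2), and 4, 1 and 1 of these calls held without each mouse. In adipocyte-like nuclei Ghr stood at 24795 and 20615 CPM in mCherry SD, 8746 and 11018 in mCherry HFD, 15394 and 13451 in Tert HFD, and 17668 and 12469 in TertCi HFD, and no group overlapped mCherry SD or mCherry HFD. These nuclei were 23.1% and 27.6% of all nuclei in mCherry SD, 3.52% and 3.16% in mCherry HFD, 13.8% and 27.2% in Tert HFD, and 30.3% and 25.1% in TertCi HFD. Nuclei called mixed were 56.2% and 53.4% in mCherry SD, 17% and 16% in mCherry HFD, 26.4% and 16.7% in Tert HFD, and 19.8% and 32.5% in TertCi HFD. The largest mixed clusters carried adipocyte markers, so the adipocyte-like shares cannot be set against each other between groups. Levels were set beside near-empty ones for the 10 members only. How far free RNA enters the calls of Ghr or of the further genes below was not tested.

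Downstream of the receptors, Irs1, which encodes an adaptor of insulin and IGF1 receptors, was lower for diet in 4 of 6 classes (-3.64 to -1.15), higher with Tert in 3 (0.62 to 2.17, the lowest in adipocyte-like nuclei, where its direction changed with the clustering) and with TertCi in 5 (0.86 to 2.82); 4, 0 and 4 of these held without each mouse. Foxo1, a transcription factor held out of the nucleus by this signal, was lower for diet in 4 of 6 (-1.02 to -0.74), higher with Tert in all 6 (0.75 to 1.19) and with TertCi in all 6 (1.01 to 1.62), and 1, 1 and 4 held. In macrophage-like nuclei Foxo1 stood at 139.7 and 145.8 CPM in mCherry SD, 77.8 and 77.3 in mCherry HFD, 145 and 157 in Tert HFD, and 191 and 196 in TertCi HFD, and the mCherry HFD mice were below all others. Pik3r1, the regulatory subunit of phosphoinositide 3-kinase, was lower for diet in 5 of 6 classes (-2.64 to -0.69) and higher with TertCi in 3 (0.57 to 0.98), and 3 and 0 held. Grb10, an adaptor that dampens both receptors, was higher with TertCi in 4 classes (0.64 to 1.63) and lower for diet in adipocyte-like nuclei (-1.39). Insr, the insulin receptor gene, was lower for diet in macrophage-like nuclei (-0.92) and higher there with Tert (0.56) and TertCi (0.68), as it was in adipocyte-like nuclei with TertCi (0.83). Irs2, another adaptor, was higher with TertCi in 3 classes (0.71 to 1.14). None of the 5 calls of Grb10 or the 3 of Irs2 held without each mouse, and of the 4 of Insr only that for diet did.

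Cish, a target of growth hormone signalling, was lower for diet in 3 of 3 classes tested, and 1 of these calls held without each mouse. In adipocyte-like nuclei it stood at 83.5 and 94 CPM in mCherry SD, 3.32 and 0.996 in mCherry HFD, 1.54 and 6.53 in Tert HFD, and 1.9 and 4.4 in TertCi HFD, with all 6 mice on the high-fat diet at under 7 CPM. Cish was higher with TertCi in macrophage-like nuclei (3.34), on 11 and 2 UMIs against 1 and 4 in mCherry HFD. Socs2, which restrains the same pathway, was lower in adipocyte-like nuclei with Tert (-2.34) and TertCi (-2.01). Plagl1, an imprinted transcription factor, was lower for diet in 2 of 4 classes (-2.07 to -1.08), higher with Tert in 2 (1.27 to 2.12) and with TertCi in 3 (1.77 to 2.81). None of the calls of Socs2 and Plagl1, nor that of Cish with TertCi, held without each mouse.

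Genes for proteins that bind Igf2 RNA went the other way. Igf2bp2 in macrophage-like nuclei stood at 20.8 and 5.55 CPM in mCherry SD, 219.9 and 223 in mCherry HFD, 61 and 88.1 in Tert HFD, and 49.97 and 59.3 in TertCi HFD, and was higher for diet in 3 of 6 classes and lower with each genotype in 3, although the TertCi direction in adipocyte-like nuclei changed with the clustering. Igf2bp3 in adipocyte-like nuclei stood at 0.36 and 2.98 CPM in mCherry SD, 26.9 and 39.8 in mCherry HFD, 6.51 and 0.435 in Tert HFD, and 3.72 and 2.59 in TertCi HFD, and was higher for diet in 4 of 4 classes tested (in the other 3, 0 to 2 UMIs in an mCherry SD mouse) and lower with Tert (-2.68 to -2.36) and TertCi (-2.79 to -2.48) in all 4. Without each mouse 4 of the 9 calls of Igf2bp2 and 6 of the 12 of Igf2bp3 held. The mCherry HFD mice had the highest values in both, although Igf2 itself was hardly detected. Of the proteases, Pappa was called among the 6 classes in adipocyte-like nuclei alone, higher for diet (1.81) and lower with Tert (-3.55) and TertCi (-4.001). The first pair changed direction with the clustering or the naming of classes, and the TertCi call was lost with other settings of nuclei calling, clustering or naming (-2.79 to -0.335). Within subclasses Pappa was lower for diet in the other progenitor-like nuclei (-1.79) and lower with Tert (-2.17) and TertCi (-3.75) in interstitial progenitor-like nuclei. Adam12 was higher for diet (0.56) and lower with TertCi (-0.84) in progenitor-like nuclei, higher with Tert in endothelial-like nuclei (0.95) and lower with TertCi in mural-like nuclei (-2.01). Single calls were also made for Stat5b (0.41 in macrophage-like nuclei, TertCi), Akt2 (0.65), Htra1 (1.06) and Stc2 (1.37), all 3 in adipocyte-like nuclei with TertCi, Stc2 for diet there (-2.03), and Pappa2 (-3.57, diet) and Adamts1 (-0.90, TertCi) in progenitor-like nuclei. Of the class calls of these proteases and single genes, those that held without each mouse were 1 of 3 for Pappa (TertCi), 1 of 4 for Adam12 (TertCi) and that of Stc2 for diet. Jak2, Stat5a, Shc1, Grb14, Akt1, Foxo3 and Igfals were tested in 1 to 6 classes with no call among the 6. Outside them Grb14 was lower for diet in perivascular macrophage-like nuclei (-3.60), and over all nuclei Stat5a was lower for diet (-1.003) and higher with Tert (0.79) and TertCi (0.98), Grb14 lower for diet (-2.66), Akt1 higher for diet (1.12) and lower with TertCi (-1.15), and Stc1 higher with TertCi (1.56). Igfbp1, Stc1, Igf2bp1, H19 and Igf2os gave no class test.

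Tert HFD and TertCi HFD were also compared with each other. None of the 42 member tests passed in edgeR, 4 had an unadjusted p under 0.05, and DESeq2 called 0; of the tests of the further genes, 0 passed and 13 had an unadjusted p under 0.05. Few genes of any kind passed: 0% in 5 classes and 0.00914% in mesothelial-like nuclei. With 2 mice a group, a missed threshold does not show that the genotypes act alike.

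The genes most like 6 of the members over the same 47 sums, by Pearson r of log2(CPM + 5) among genes of at least 10 CPM on average, were as follows, as a description that shares libraries, depth and classes. For Igf1 they were Mpp1 (0.79), Camkk2 (0.78), Snx10 (0.77). For Igf2r they were Gm49959 (0.93), Atg16l2 (0.92), Brip1os (0.92). For Igfbp4 they were Thbd (0.73), Pkhd1l1 (0.72), Suclg2 (0.72), and for Igfbp5 Fgf1 (0.85), Rarres2 (0.84), Pde4dip (0.82). For Igfbp6 they were Dpp4 (0.91), Gas1 (0.90), Tnfrsf11b (0.90), and Dpp4 is among the markers that named progenitors here. For Igfbp7 they were Filip1 (0.94), Phldb2 (0.91), Map1b (0.90).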

How the data were processed

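Nuclei of mouse visceral fat (8 mice, 2 per group) were read with 10x Genomics 3' chemistry after a sort on DAPI, per the labels' protocols. The deposited values are whole-number UMI counts per gene and barcode, neither normalised nor filtered to nuclei, made with Cell Ranger 7.1.0 per the file headers and 5.0.1 per the submitters' processing notes, which name build mm39. Whether introns and strand were used in counting is not given in the sources used here.

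A barcode counted as a nucleus if it reached 500 UMIs, or 0.1 times percentile 99 of the top 5000 barcodes where that was larger, had 300 genes or more and a mitochondrial share no higher than 5%. Scrublet's automatic threshold marked 0 to 0.154% of nuclei, so the highest-scoring nuclei were dropped instead, 0.8% for each 1000 called. Of called barcodes, 123 occurred in more than 1 library. Clustering (scanpy 1.11.5, 2000 variable genes without the members, 30 components, 15 neighbours, Leiden 1.0) gave 38 clusters, 17 of them mixed and 2 unnamed. Classes were named from marker lists by a scoring rule set after clusters were seen: 3 markers raised at a fold of 2 and a mean score of 1.

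Counts were summed per mouse and class (at least 20 nuclei) and tested with edgeR 4.0.16 (quasi-likelihood, TMM, filterByExpr, all groups in 1 fit, Benjamini-Hochberg over all genes, threshold 0.05). Groups share no batch record, so none was fitted, and only the labels show that samples are separate mice. Differences between classes were tested in 1 fit of both classes with the mouse as a block and class-by-group terms, for 4 pairs of classes, chosen after seeing the data. Settings tried were other scalings and filters, DESeq2 1.42.0, other nuclei thresholds, clusterings and namings, and leaving out each mouse, where a lone mouse is assumed to vary like the other groups. In a simulation of diet in progenitor-like nuclei over 12280 genes, 57% of genes changed by log2 2 and 3% of those changed by log2 1 were recovered. The simulation gave every gene the same fixed spread between mice, which was not taken from the data. These shares therefore need not hold for genes that vary less or more than that. All members are named, with pathway genes called in 2 classes or in a class with a called member. Members and lists were chosen with earlier results of these data known. The genes most like Igf1r are not reported here.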

Additional observations from a re-analysis of the deposited data

Results flagged for a closer look

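Group differences that differed between classes of nuclei are listed where a test of the difference itself (an interaction term) passed an adjusted p of 0.05, over all 4 pairs of classes, which were fitted after seeing the data. Groups differed in the clusters that make up a class, as given in the report. All values are log2 differences of the first class minus the second, with the adjusted p of edgeR's quasi-likelihood test. Perivascular macrophage-like minus progenitor-like nuclei gave, for Igf1, 0.69 for diet (0.0309), 1.35 for Tert (1.15e-08) and 1.42 for TertCi (3.92e-10). For Igf2r they gave 2.33 for diet (0.00122), -1.30 for Tert (1.41e-05) and -2.91 for TertCi (1.64e-16). Diet for Igf1 was lost without mCherry SD rep146 or either mCherry HFD mouse, diet for Igf2r without mCherry SD rep146 or mCherry HFD rep128, and Tert for Igf2r without mCherry HFD rep128 or Tert HFD rep134. For TertCi they gave 0.92 for Igfbp4 (0.00994), lost without mCherry HFD rep128, mCherry HFD rep129 or TertCi HFD rep140 (0.77 to 1.27), and -1.32 for Igfbp7 (0.00535), lost without mCherry HFD rep129 or TertCi HFD rep138 (-2.17 to -0.90).

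Adipocyte-like minus progenitor-like nuclei gave, for Igfbp4, 1.14 for Tert (0.0232) and 1.55 for TertCi (0.000746). For Igfbp6 the values were 1.90 for diet (0.0463) and -1.91 for TertCi (0.0356), and for Igfbp7 -2.24 for Tert (0.0301) and -2.19 for TertCi (0.0163). For Igf1r they were -0.80 for Tert (0.0291) and -1.13 for TertCi (0.000966), and for Igf2r -1.47 for Tert (0.000572) and -1.16 for TertCi (0.00255).

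Macrophage-like minus progenitor-like nuclei gave, for Igf1, 0.71 for diet (0.0425), 0.92 for Tert (0.0111) and 0.98 for TertCi (0.00343), and for Igf2r 2.35 (7.3e-05), -1.42 (0.000128) and -1.62 (2.66e-05). For TertCi they also gave 1.19 for Igfbp4 (0.0219) and -1.42 for Igfbp7 (0.0334). Adipocyte-like minus macrophage-like nuclei gave, for Igf1r, 0.79 for diet (0.0219), -0.87 for Tert (0.012) and -1.17 for TertCi (0.000229). Igf1 gave -1.14 for diet (0.00507) and -0.86 for TertCi (0.0237), Igf2r -1.61 for diet (0.00262), Igfbp5 1.69 for Tert (0.0344) and 1.57 for TertCi (0.0249), and Igfbp7 -2.04 for diet (0.0128) and -1.19 for Tert (0.018). Leaving out mice was run for the perivascular pair only. Of the levels behind these differences, those below the near-empty level of the same mouse are given in the report; beyond them, Igfbp4 was below it in 8 of 8 mice in progenitor-like and 4 of 8 in perivascular macrophage-like nuclei, Igfbp5 in 8 of 8 in macrophage-like and Igf1 in 4 of 8 in adipocyte-like nuclei.

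Nuclei that entered no class comparison, though they are in the sums over all nuclei, held the highest levels of 3 members. Igf1r stood at 3036 CPM in an epithelial-like cluster of 120 nuclei, all from mCherry HFD rep128, whose leading genes include Lipc, Adam28, Lcn8 and Lcn9; the last 2 encode lipocalins of the epididymis. Igfbp2 stood at 38.2 CPM and Igfbp4 at 233 CPM in a mixed cluster of 37 nuclei, 32 of them from mCherry HFD rep128, led by the hepatocyte genes Alb, Cps1 and Mat1a.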

How the results depend on the processing

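No paired analysis was possible because each mouse number occurs in a single group. Of 92 called results of members, 38 held under every alternative run and 42 without each mouse; of 110 in the further pathway genes, 27 and 38. Without each mouse in turn, member calls ran from 8 to 17 for diet and 13 to 23 for TertCi, and over all nuclei from 1 to 3 for diet, 1 to 3 for Tert and 1 to 4 for TertCi; the cause was not tested, beyond the fewer mice. Over all nuclei the 3 diet calls became 5 with DESeq2, 5 without the low-count filter and 1 with scaling to total counts, and the 2 Tert calls became 4 without the filter and 1 with total counts. Scaling to total counts, chosen after seeing the data, shifted the median of all genes in adipocyte-like nuclei by 0.41 for diet, -0.35 for Tert and -0.53 for TertCi (0.23, -0.17 and -0.23 in progenitor-like, 0.46, -0.34 and -0.47 over all nuclei).

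In adipocyte-like nuclei Igf1r changed sign for Tert to -0.28 with total counts, -0.02 without mCherry HFD rep128 and -0.13 without Tert HFD rep136 (-0.13 to 0.40 over all mice left out). For TertCi it became 0.051 without the filter, 0.12 without mCherry HFD rep129, 0.07 without TertCi HFD rep140 (-0.19 to 0.12 over all mice left out), 0.56 with members among the variable genes, 0.25 with best-score naming, 0.63 with per-nucleus naming and 0.55 at Leiden 2.0. Irs1 for Tert became -0.0395 with members among the variable genes and -0.055 at Leiden 2.0. Under the same pair of settings Pappa became -2.14 and -1.78 for diet and 0.18 and 0.18 for Tert, with -0.44 under best-score and -1.01 under per-nucleus naming for diet. Igf2bp2 for TertCi became 0.031 with members among the variable genes. The cause was not tested.

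Calls over all genes moved by over 1.5 times in 37 of 113 diet, 42 of 115 Tert and 37 of 115 TertCi alternatives, between 0.97% and 41.5%, 0% and 23.5%, and 0.402% and 38.6% of genes. With total counts the share of called genes that were higher moved from 59.4 to 87.1% for diet, 37.6 to 8.96% for Tert and 41.6 to 8.73% for TertCi in adipocyte-like nuclei. In progenitor-like nuclei it moved from 65.2 to 84.1%, 29.2 to 16.01% and 34.3 to 15.4%, in macrophage-like from 55.7 to 66.9%, 37.7 to 25.8% and 40.4 to 28.3%, and in mural-like from 47.2 to 58.0%, 36.5 to 23.3% and 36.9 to 20.5%. In mesothelial-like nuclei it moved from 67.7 to 86.9% for diet and 38.5 to 15.8% for TertCi, and over all nuclei from 54.6 to 79.7%, 50.5 to 27.1% and 45.5 to 18.8%. With 2 mice a group, 57% of genes changed by log2 2 and 3% of those changed by log2 1 were recovered in the simulation of diet in progenitor-like nuclei, and endothelial-like nuclei numbered 8 and 23 in the mCherry SD mice. The simulated spread was fixed and the same for every gene, so these shares need not hold for the data.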
